A study of Mus musculus with 10 samples.

Results

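The cytoplasmic ribosomal protein genes of mouse hair follicle stem cells (HFSCs) were described here. The genes were chosen by symbol, as every gene row named Rpl or Rps followed by a number (with the paralogue endings a, x, l and y) together with Rpsa, Rplp0, Rplp1 and Rplp2. Of the 83 rows with such symbols, 80 had a mean of at least 1 FPKM (fragments scaled by transcript length and by the mapped fragments of the library) over 4 RNA libraries. They comprised 47 proteins of the large subunit, the P-stalk included, and 33 of the small subunit, out of 14455 genes that reached this level and 37298 rows in all. Just outside the threshold were Rpl39l (mean 0.161 FPKM), Rpl3l (0.0361 FPKM) and Rpl10l (0.0035 FPKM), and the lowest inside it were Rps4y2 (14.9 FPKM), Rpl7l1 (26.3 FPKM) and Rpl29 (39.0 FPKM). The symbols are those of the deposited table. The current gene list calls the identifier of Rps4y2 Rps4l and that of Rps3a Rps3a1.

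The ribosome is the particle that makes protein, and nearly all of its proteins are present in a single copy per particle, so cells produce these proteins in matched amounts. Most of their mRNAs begin with a run of pyrimidines, the terminal oligopyrimidine (TOP) tract, through which growth signalling regulates their translation. HFSCs rest in the bulge during telogen, the quiet phase of the hair cycle, and translation is known to be low in them compared with their activated descendants.

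The study asked what SOX9, an HMG-box transcription factor of HFSCs, binds and regulates in these cells. RNA came from HFSCs of telogen back skin of C57BL6 mixed background, sorted as integrin α6 high, CD34+, ScaI- and YFP+. The genotypes, labelled Sox9 cKO (conditional knockout, genotype field Sox9 Knock out) and control, had 2 libraries each. The control titles read Het, for heterozygote, while their genotype field reads wild type. All 4 libraries came from mice given RU486, which switches on the CrePGR recombinase. The labels do not name the promoter of the Cre. Replicate 2 of each genotype was a female of postnatal day 80 treated on days 53 to 66, and replicate 1 a male of day 75 treated on days 48 to 61. They are called the female pair and the male pair below, but sex, age, treatment days and preparation cannot be told apart. Whether a library held 1 mouse or several is not given, so p-values measure only the spread between these 4 libraries. SOX9 binding was mapped by ChIP-seq, the sequencing of DNA recovered with an antibody, in 2 libraries of HFSCs and 1 of interfollicular epidermis (IFE). The mice for ChIP-seq were CD-1 females between days 52 and 60, without treatment.

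Sox9 itself did not follow the labels. It stood at 80.5 FPKM in the female library labelled cKO and at 71.3 FPKM in the male one, against 46.5 FPKM in the female control and 82.7 FPKM in the male control (limma adjusted p 0.690 with the replicate number as a block). The libraries are therefore called "labelled cKO" throughout, and every genotype direction rests on that label. Markers of the labelled cell type were abundant. The summed level of 7 HFSC markers lay between 9517 and 11582 FPKM, most of it Krt15 (8703 to 10894 FPKM), while 2 endothelial markers summed to at most 0.179 FPKM, 4 leukocyte markers to at most 8.96 FPKM and 4 melanocyte markers to at most 3.20 FPKM. Of the leukocyte, melanocyte and fibroblast lists, 2 markers each stayed under 1 FPKM in every library, and no marker of any list was at 0 in all. Other HFSC markers differed with the groups. Lhx2 stood at 87.1 FPKM in the female labelled cKO and 195 FPKM in the female control, and at 114 and 359 FPKM in the male labelled cKO and control (limma, replicate block, adjusted p 0.0273). Cd34, Nfatc1 and Lgr5 were also lower in the labelled cKO in both pairs, by values that did not pass (limma, replicate block, adjusted p 0.247, 0.247 and 0.489). Krt15 (0.22 in the female pair and -0.14 in the male pair) and Tcf7l1 (0.06 and -0.63), like Sox9, had opposite signs in the pairs. Between replicates, Nfatc1 (-1.78), Lgr5 (-1.57), Tcf7l1 (-1.34) and Lhx2 (-0.63) were called lower in replicate 2 by limma. Cd34 (0.04), Krt15 (0.14) and Sox9 (-0.32) were not called. Markers of differentiated epidermis (Krt1, Krt10, Ivl, Lor) summed to 4662 FPKM in the female labelled cKO and 7275 FPKM in the female control, and to 2505 FPKM in the male labelled cKO and 2641 FPKM in the male control. The 2 sebocyte markers summed to between 40.3 and 119 FPKM. The markers of cycling cells summed to between 7.38 and 9.41 FPKM. The labels and the table give no read depth.

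Ribosomal protein genes were among the most abundant in every library. Their median of mean levels was 492 FPKM, against 12.2 FPKM over all tested genes, and 77 of the 80 stood above 77.8 FPKM, the level that 90% of tested genes do not exceed. Together they summed to 97006 FPKM in the female labelled cKO library, 71281 FPKM in the female control, 32088 FPKM in the male labelled cKO and 27386 FPKM in the male control. As a share of the FPKM of all rows this was 10.7%, 9.06%, 5.49% and 4.93%, in the same order of libraries. Both female libraries thus stood above both male ones, and within each pair the labelled cKO library stood above its control. The genes were spread over a wide range of levels. Rpl13a, which in human and mouse cells also has a role off the ribosome in silencing inflammatory transcripts, stood at 5151 FPKM in the female labelled cKO, 3974 FPKM in the female control, 1465 FPKM in the male labelled cKO and 1383 FPKM in the male control. The subunits kept nearly the same proportion, with a ratio of the small-subunit sum to the large-subunit sum of 1.05 in the female labelled cKO, 1.02 in the female control, 1.03 in the male labelled cKO and 0.961 in the male control.

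**Figure D1:**
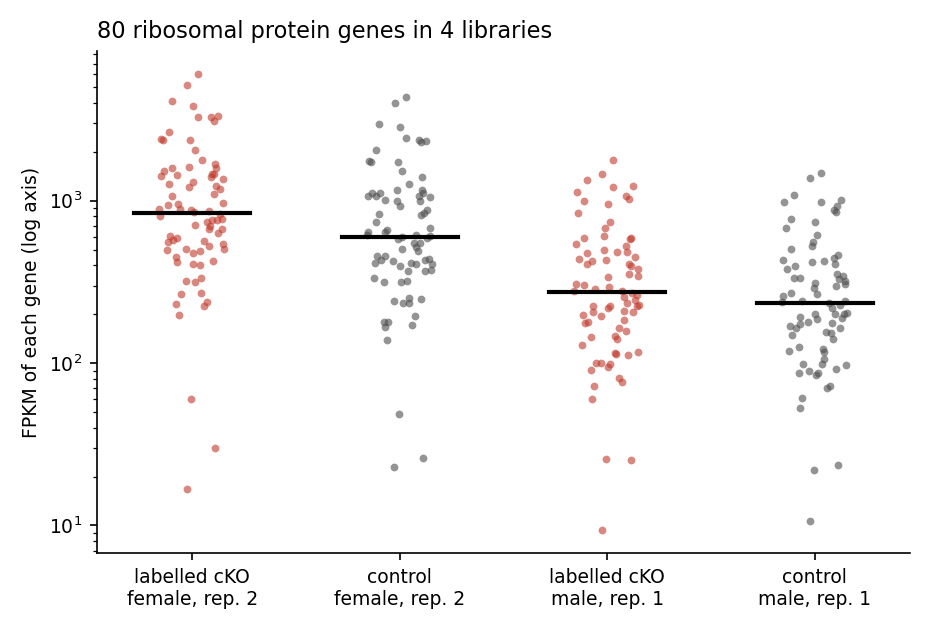
Level of each of the 80 ribosomal protein genes (points, FPKM on a log axis) in each of the 4 libraries, with the median as a bar. The medians were 839 and 600 FPKM in the female labelled cKO and control libraries and 273 and 236 FPKM in the male ones; the whole cloud shifts between pairs, and less within a pair.

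Within both pairs the ribosomal protein genes stood slightly higher in the library labelled cKO, almost without exception, but no single gene passed a test. The median difference, labelled cKO minus control on the log2(FPKM + 1) scale, was 0.43 in the female pair and 0.24 in the male pair, that is 1.35-fold and 1.18-fold. Over all tested genes the medians were 0.03 and -0.03. In both pairs 78 of 80 genes (97.5%) were higher in the labelled cKO, where 28.4% of all tested genes were, and 1 gene was lower in both, where 29.6% of all tested genes were. With limma on genotype alone, 0 of 80 genes passed an adjusted p of 0.05, 0 passed an unadjusted p of 0.05 (smallest p 0.398), and 0% of all tested genes were called. With the replicate number as a block, limma again called 0 of 80 (adjusted p between 0.189 and 0.789), against 0.284% of all tested genes. In that fit 51 of 80 (63.8%) had an unadjusted p under 0.05 and were higher in the labelled cKO, where 6.33% of all tested genes were, and 0 were lower. The pairs differed from each other by more than the genotypes did, and 0 of 80 genes had both labelled cKO libraries above both controls, where 5.47% of all tested genes did. With the block, 1 residual degree of freedom remains for each gene. The sum of 4 fibroblast markers (Col1a1, Col1a2, Pdgfra, Dcn) was also higher in the labelled cKO in both pairs, at 21.2 FPKM in the female labelled cKO and 8.60 FPKM in the female control, and at 22.5 FPKM in the male labelled cKO and 16.8 FPKM in the male control. In the male pair Col1a2 alone carried this, at 21.9 FPKM in the labelled cKO and 14.8 FPKM in the control, while Col1a1, Pdgfra and Dcn were lower in the labelled cKO. The sum of differentiated epidermis markers, given above, was lower in the labelled cKO in both pairs, as were Lhx2, Cd34, Nfatc1 and Lgr5. Krt10, part of that sum, was slightly higher in the male labelled cKO (1768 FPKM) than in the male control (1729 FPKM). The other HFSC markers, Krt15, Tcf7l1 and Sox9, were higher in the labelled cKO in the female pair and lower in the male pair. The part of any of these in the genotype difference was not tested. In bulk RNA, a change in the number of cells of a type and a change in RNA per cell cannot be told apart.

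The direction of the median rests on comparing libraries of the same pair. Leaving out 1 library without a block compares unlike sexes, and the median was then -0.45 without the female labelled cKO, -0.34 without the male control, 1.03 without the female control and 1.14 without the male labelled cKO. The size also depended on scaling. The median was 0.14 after quantile normalization and 0.20 with library sums made equal, against medians over all tested genes of 0.01 and -0.12 under the same scalings.

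Ribosomal protein genes have short loci and high levels, so like genes were set beside them. The 8930 other genes with a locus span inside the 10th to 90th percentile of the ribosomal protein genes had medians of 0.01 in the female pair and -0.04 in the male pair, and 24.5% of them were higher in both pairs. The 261 other genes that were also of like mean level had medians of 0.11 in the female pair and 0.12 in the male pair, and 55.2% of them were higher in both. The 490 other genes of like level, whatever their span, had medians of 0.23 and 0.19, and 67.8% were higher in both pairs. In the blocked limma fit 34.1% of these 490 had an unadjusted p under 0.05 and were higher in the labelled cKO. The span window, from 1894 to 63522 bp, reached well above the median span of the ribosomal protein genes, 3925.5 bp. Other tested genes under 3 kb had medians of 0.18 in the female pair and 0.10 in the male pair, and those of 3 to 10 kb 0.03 and -0.02. The gap in median was thus smaller to genes of like level, with or without like span, and to genes under 3 kb than to all tested genes. To the 8930 genes inside the span window it was not smaller. The ribosomal protein genes were also less scattered than the genes of like span and level, with the middle of the distribution (25th to 75th percentile) at 0.37 to 0.50 in the female pair and 0.16 to 0.27 in the male pair, against -0.11 to 0.27 and 0.01 to 0.25 for those 261 genes. Of the 80, 44 lay within 0.1 of the median in both pairs. No test was made over the list, since it was chosen with results of these libraries known.

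**Figure D2:**
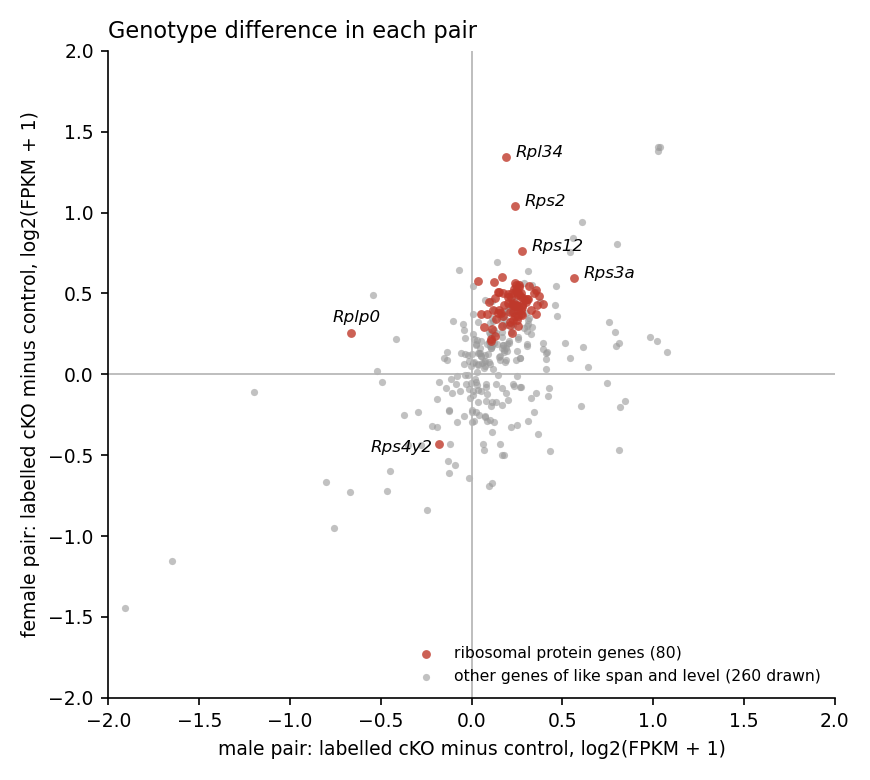
Difference between the labelled cKO and control libraries (log2(FPKM + 1)) in the male pair (horizontal) and the female pair (vertical) for the 80 ribosomal protein genes (red) and for other genes of like locus span and level (grey, 260 of 261, 1 outside the axes). The red points form a tight group in the upper right, with Rpl34, Rps2, Rps12, Rps3a, Rplp0 and Rps4y2 apart from it.

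The large subunit had medians of 0.42 in the female pair and 0.22 in the male pair, and the small subunit of 0.47 and 0.25. Among large-subunit proteins, Rpl34 had the highest mean difference. It stood at 422 FPKM in the female labelled cKO and 166 FPKM in the female control, but at 60.3 FPKM in the male labelled cKO and 52.7 FPKM in the male control, differences of 1.34 and 0.19 (limma, replicate block, adjusted p 0.371). The gap was wide in the female pair and narrow in the male pair. The row of its processed copy Rpl34-ps1 had 1110 and 873 FPKM in the female labelled cKO and control and 352 and 305 FPKM in the male ones, more than Rpl34 itself in each library. With the rows of Rpl34 and its copies summed, the differences were 0.56 and 0.21. How reads were divided among near-identical copies is not stated, which leaves the level of Rpl34 uncertain. The part of this division in the Rpl34 difference was not tested. Of the 80 genes, 52 have at least 1 row named as a pseudogene of theirs, and these levels are uncertain in the same way.

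Rps2, a small-subunit protein near the mRNA channel, stood at 756 FPKM in the female labelled cKO and 367 FPKM in the female control, and at 268 FPKM in the male labelled cKO and 227 FPKM in the male control. Its differences were 1.04 in the female pair and 0.24 in the male pair (limma, replicate block, adjusted p 0.361), and 0.69 and 0.29 with its pseudogene rows added. Rps3a, of the small-subunit platform, was the most even of the high ones, at 879 FPKM in the female labelled cKO and 582 FPKM in the female control, and at 432 and 292 FPKM in the male labelled cKO and control. Its differences were 0.59 and 0.56, and its adjusted p of 0.189 was the smallest of the 80 in the blocked limma fit. Rps12 differed by 0.76 in the female pair and 0.28 in the male pair, Rps18 by 0.52 and 0.35, and Rpsa, which is also known as a precursor of the laminin receptor, by 0.55 and 0.31.

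The lowest differences included several paralogues of core genes. Rps4y2 was the only gene lower in both pairs, at 16.8 FPKM in the female labelled cKO and 23.0 FPKM in the female control, and at 9.33 and 10.7 FPKM in the male labelled cKO and control (differences -0.43 and -0.18). It was also the least abundant of the 80, and its row lies on chromosome 6 in the table. Rpl7l1, a paralogue of Rpl7 known from ribosome assembly, differed by 0.21 in the female pair and 0.10 in the male pair, and its parent Rpl7 by 0.46 and 0.31. Rps27l, a paralogue of Rps27 and a known p53 target, differed by 0.22 and 0.11, and its parent Rps27 by 0.57 and 0.24. Another paralogue in the set, Rpl22l1, known in mice as a partly redundant copy of Rpl22, differed by 0.51 and 0.25, and Rpl22 by 0.39 and 0.23. Differences between paralogue and parent were not tested. Among the other genes higher in both pairs the lowest mean differences were those of Rpl31 (0.29 in the female pair and 0.07 in the male pair), Rpl24 (0.24 and 0.13) and Rpl10 (0.28 and 0.11).

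Rplp0, the base of the P-stalk that recruits translation factors, was the only gene with opposite signs. It stood at 1675 FPKM in the female labelled cKO and 1404 FPKM in the female control, but at 582 FPKM in the male labelled cKO and 924 FPKM in the male control. The differences were 0.26 in the female pair and -0.67 in the male pair (limma, replicate block, adjusted p 0.789). Its row Rplp0-ps1 differed by 0.22 and 0.56 in the same pairs, at 334 and 287 FPKM in the female labelled cKO and control and at 118 and 79.9 FPKM in the male ones. Summed over the gene and its pseudogene rows the differences were 0.25 and -0.52. Its stalk partners did not share the male value, with 0.43 and 0.36 for Rplp1 and 0.47 and 0.13 for Rplp2.

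Several genes are known for roles beyond the core of the ribosome, and their differences are given here. Rpl5 and Rpl11, which bind Mdm2 when ribosome assembly fails, differed by 0.51 and 0.36 in the female pair and by 0.14 and 0.17 in the male pair. Rps6, the substrate of the S6 kinases, stood at 807 FPKM in the female labelled cKO and 638 FPKM in the female control, and at 307 and 259 FPKM in the male labelled cKO and control. Rps19 and Rps14, whose mutation or loss is linked to anaemia in humans, differed by 0.55 and 0.47 in the female pair and by 0.26 and 0.28 in the male pair. Rpl38, which in mice is needed for the translation of certain Hox mRNAs, differed by 0.34 and 0.23, and Rps25, needed for some internal ribosome entry sites, by 0.44 and 0.24. Rpl10a differed by 0.34 and 0.13, and Rps27a, made as a fusion with ubiquitin, by 0.40 and 0.12. None of these passed the limma test in either fit.

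The contrast between the pairs was far larger than that between genotypes. Every one of the 80 genes had both replicate 2 (female) libraries above both replicate 1 (male) libraries, where 37.9% of all tested genes did. The median difference, replicate 2 minus replicate 1, was 1.49 (2.80-fold), against -0.00 over all tested genes. With limma, genotype as a covariate, 79 of 80 genes were called higher in replicate 2 at an adjusted p of 0.05 (at most 0.0068), where 25.8% of all tested genes were called higher. With 1 library left out, and genotype no longer in the fit, the median was 1.59 without the male labelled cKO and 1.37 without the male control. It was 1.24 without the female labelled cKO and 1.72 without the female control. Calls of these fits are not given, since their error rests on the genotype difference of the 1 pair left complete. The difference was at least 2-fold in both genotypes for 72 of the 80 genes, a count not made over all tested genes. It was larger between the labelled cKO libraries than between the controls for 79 of the 80, as for 8502 of the 14455 tested genes. The medians of the 80 were 1.60 and 1.38, which restates the larger genotype difference of the female pair.

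The genes that rose most in replicate 2 were Rpl34 (2.21), Rpl35a (2.07) and Rps27 (2.03), with Rpl36 (2.00) and Rplp1 (1.98) next. Rpl35a stood at 543 and 373 FPKM in the female labelled cKO and control, and at 117 and 97.2 FPKM in the male labelled cKO and control. Rps27 stood at 952 and 643 FPKM in the female libraries and at 207 and 175 FPKM in the male ones, labelled cKO before control. Rpl7l1 was the gene not called, at 30.1 FPKM in the female labelled cKO and 26.0 FPKM in the female control, and at 25.4 and 23.6 FPKM in the male labelled cKO and control (difference 0.18, limma adjusted p 0.288). Rps4y2 also rose less than most, by 0.91 (limma adjusted p 0.00328). Of the other paralogues, Rpl22l1 rose by 1.31 and Rps27l by 1.19, both with a limma adjusted p of 0.00042 or less.

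The replicate difference was related to locus span in the other genes and not visibly so in the ribosomal protein genes. Medians of the other tested genes were 0.52 for loci under 3 kb, 0.36 for 3 to 10 kb, 0.04 for 10 to 30 kb, -0.30 for 30 to 100 kb and -0.38 over 100 kb. The ribosomal protein genes of the same bins had medians of 1.54 (29 genes), 1.42 (33), 1.49 (8), 1.34 (5) and 1.52 (5). Other genes of like span had a median of 0.03, and those of like span and level 0.51. The 490 other genes of like level had a median of 0.85, and limma called 67.8% of them higher in replicate 2. The span is that of the merged locus in the table and not of the transcript. 46 of the 80 genes share their locus coordinates with other rows, and 159 rows share the locus of Rpl13, of 4435365 bp, so the long bins say little about gene length. The size also depended on scaling. With library sums made equal, the median of all tested genes shifted by -0.49, the calls over all genes were 1611 higher and 6918 lower in place of 3731 higher and 3490 lower, and 77 of the 80 genes were called higher, with a median of 0.92. After quantile normalization the median was 0.62, with 70 called higher. The sum of differentiated epidermis markers was higher in the female libraries too, through Lor (replicate difference 2.89), Krt10 (0.87) and Ivl (0.83), while Krt1 had -0.24. Of the 7 HFSC markers, 4 were called lower there, as given above. Their part in the replicate difference was not tested.

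**Figure D3:**
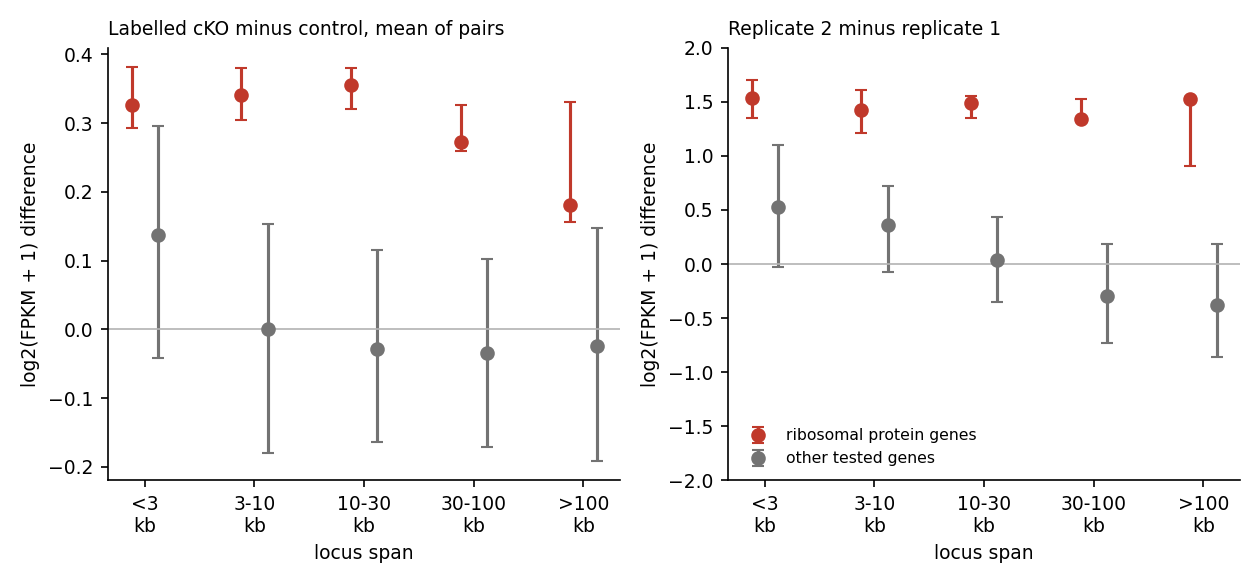
Median and 25th to 75th percentile of the difference by locus span, for the ribosomal protein genes (red) and the other tested genes (grey), in log2(FPKM + 1). Left, labelled cKO minus control as the mean of both pairs; right, replicate 2 minus replicate 1, where the grey medians run from 0.52 under 3 kb to -0.38 over 100 kb and the red ones stay between 1.34 and 1.54.

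Rows annotated as ribosomal protein pseudogenes followed the genes. There were 156 such rows, of which 133 reached 1 FPKM, and they summed to 53140 FPKM in the female labelled cKO, 39376 FPKM in the female control, 17951 FPKM in the male labelled cKO and 15175 FPKM in the male control. Their median differences were 0.43 in the female pair, 0.24 in the male pair and 1.46 between replicates, and 126 of 133 were higher in the labelled cKO in both pairs. Processed copies resemble their parent mRNA closely, and how reads were divided between the rows is not stated in the labels or the table.

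Other genes of the ribosome's making and use were counted from 8 lists. Replicate calls in them are to be read beside the 25.8% of all tested genes called higher and the 24.1% called lower in replicate 2. The 4 ribosomal proteins with other symbols, among them Fau (fusion of a ubiquitin-like protein with a small-subunit protein), Gnb2l1 (the scaffold now called Rack1) and Rpl36al, were all higher in the labelled cKO in both pairs. Their medians were 0.39 in the female pair, 0.22 in the male pair and 1.58 between replicates, and 4 of 4 were called higher in replicate 2 by limma. Fau stood at 826 FPKM in the female labelled cKO and 593 FPKM in the female control, and at 225 and 189 FPKM in the male labelled cKO and control. The 76 mitochondrial ribosomal protein genes, which build the separate ribosome of the mitochondrion, had medians of 0.24 in the female pair, 0.10 in the male pair and 0.82 between replicates. Of these, 44 were higher in the labelled cKO in both pairs and 4 lower in both, and limma called 66 higher and 0 lower in replicate 2.

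Elongation factors and other TOP mRNAs (15 genes) had medians of 0.18 in the female pair and 0.21 in the male pair, with 11 higher in both and 1 lower in both, and 10 were called higher and 0 lower in replicate 2. Eef1b2, which reloads the elongation factor that brings tRNA, stood at 2221 and 1668 FPKM in the female labelled cKO and control and at 829 and 698 FPKM in the male ones. Pabpc1, the poly(A)-binding protein and a TOP mRNA as well, had a replicate difference of -0.16 (limma adjusted p 0.305). Ribosome biogenesis factors (27 genes) had medians of 0.30 in the female pair, -0.01 in the male pair and -0.09 between replicates, with 7 called higher and 5 lower in replicate 2. RNA polymerase I genes (13) had medians of 0.30, 0.13 and 0.27, with 5 called higher and 2 lower. Thus the lists for assembly factors and for the polymerase that makes ribosomal RNA had replicate medians of at most 0.27, against 1.49 for the ribosomal proteins. The 2 lists were not matched to the ribosomal proteins in level. Other genes of the level of the ribosomal proteins had a replicate median of 0.85.

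Growth regulators (15 genes with values of at least 1 FPKM, of 16 rows) had medians of 0.09 in the female pair, -0.04 in the male pair and -0.61 between replicates, with 3 called higher and 8 lower in replicate 2. Myc, the transcription factor best known for driving ribosome production, stood at 54.3 FPKM in the female labelled cKO and 55.0 FPKM in the female control, but at 141 FPKM in the male labelled cKO and 67.3 FPKM in the male control. It was called lower in replicate 2, with a difference of -0.82 (limma adjusted p 0.0247), while the ribosomal protein genes were higher there. Host genes of small nucleolar RNAs (5) had medians of 0.52, -0.20 and 0.52, with 3 called higher and 0 lower in replicate 2. The genes linking the ribosome to p53 (6) had medians of 0.20, -0.07 and -0.21, with 1 called higher and 2 lower. No gene of these 8 lists passed the limma genotype test, with or without the replicate block.

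**Figure D4:**
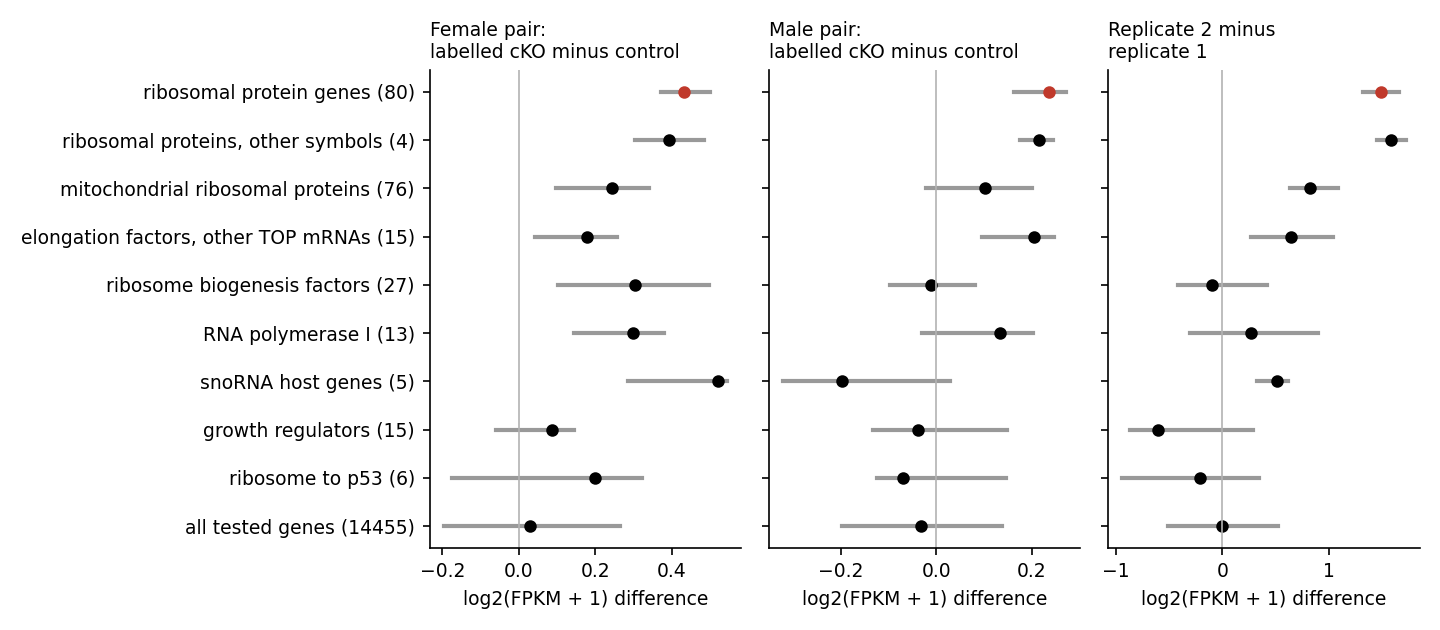
Median (point) and 25th to 75th percentile (bar) of the log2(FPKM + 1) difference for the ribosomal protein genes, 8 related lists and all tested genes, with the number of tested genes in brackets. Ribosomal proteins with other symbols lie with the ribosomal protein genes in each panel, and in the replicate panel the growth regulators lie at -0.61.

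Start sites were looked at because the genes differed together between replicates. Promoter sequences of RefSeq (build GRCm38.p6, from 250 bases before to 50 after each start) were matched by symbol for 58 of the 80 genes, and coordinates of this build are not those of the mm9 loci and peaks. A run of at least 8 bases of C or T overlapping the 15 bases before to 20 after a start was present for 32 of 58 genes (55.2%), against 21.9% of the 8450 tested genes with a promoter and 21.6% of all 27025 genes of the table. Any of a gene's listed starts could count, and a run in DNA is a description and not a mapped mRNA end. The hexamer CGGAAG, the core recognised by ETS factors, on either strand, was in 67.2% of the ribosomal protein promoters, against 35.2% of tested genes and 18.8% of all. The following stretches run 5′ to 3′ from 25 bases before to 25 after the most upstream listed start. They show examples of long pyrimidine runs and the most upstream starts of Rplp0 and Rpl7l1, the genes that stood apart above. Other listed starts could count above but are not shown, so a short run here does not mean that a gene lacks a longer one. Capitals mark the longest run of C and T that overlaps the 15 bases before to 20 after the start (the first of equal runs).
Rpl7a: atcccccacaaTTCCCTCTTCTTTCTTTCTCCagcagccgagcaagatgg
Rpl27a: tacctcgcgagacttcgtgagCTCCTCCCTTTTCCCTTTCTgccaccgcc
Rpl35: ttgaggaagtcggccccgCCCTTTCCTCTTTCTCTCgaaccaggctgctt
Rpl14: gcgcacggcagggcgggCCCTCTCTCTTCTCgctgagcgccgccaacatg
Rps9: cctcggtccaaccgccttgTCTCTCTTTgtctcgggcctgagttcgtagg
Rplp0: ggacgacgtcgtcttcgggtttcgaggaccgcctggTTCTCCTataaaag
Rpl7l1: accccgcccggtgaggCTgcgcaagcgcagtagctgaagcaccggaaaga
The stretches lie at chr2:26910782-26910831 (+ strand), chr7:109519170-109519219 (+), chr2:39005107-39005156 (- strand), chr9:120571492-120571541 (+), chr7:3704016-3704065 (+), chr5:115559442-115559491 (+) and chr17:46782632-46782681 (-) of GRCm38.p6. At these most upstream starts the runs have 21 bases in Rpl7a, 20 in Rpl27a, 18 in Rpl35, 14 in Rpl14, 9 in Rps9, 7 in Rplp0 and 2 in Rpl7l1. The 32 genes with a run of at least 8 bases and the 26 without had medians of 0.34 and 0.34 for labelled cKO minus control as the mean of both pairs, and 1.53 and 1.39 between replicates.

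SOX9 peaks lay within 10 kb of ribosomal protein genes in shares close to those of all tested genes. The shares were below those of the 261 genes of like span and level, but the gap was smaller among loci of at most 20 kb. A peak within 10 kb of the locus was present for 30 of 80 genes in HFSC list 1 (37.5%, exact binomial 95% interval 26.9 to 49.0%), against 34.9% of all tested genes. In HFSC list 2 it was present for 18 (22.5%, interval 13.9 to 33.2%), against 24.2% of all tested genes. In both HFSC lists it was present for 16 (20.0%, interval 11.9 to 30.4%), against 17.5% of all tested genes and 16.3% of other genes of like span. In the IFE list it was present for 25 (31.2%, interval 21.3 to 42.6%), against 36.3% of all tested genes. In all 3 lists it was present for 14 (17.5%, interval 9.91 to 27.6%), against 14.5% of all tested genes. Each of these 5 intervals holds the share of all tested genes. The shares of the 261 other genes of like span and level were above the intervals of the ribosomal protein genes for HFSC list 1 (56.3%), HFSC list 2 (38.7%), the IFE list (52.9%) and both HFSC lists (31.0%), and within the interval for all 3 lists (26.8%). The comparison also depended on the window. Within 50 kb, 46.2% of the ribosomal protein genes had a peak in both HFSC lists (interval 35.0 to 57.8%), against 31.9% of all tested genes, 33.4% of other genes of like span and 55.2% of those of like span and level. Fewer rows are merged among loci of at most 20 kb. There, 12 of 68 genes (17.6%) had a peak in both HFSC lists within 10 kb. The share was 18.6% for other genes of this span and of like level, and 11.8% for all other genes of this span. Within 50 kb, the shares at loci of at most 20 kb were 47.1%, 35.7% and 28.8%, in the same order of sets. The lists hold 8181, 2989 and 5209 peaks, and intervals cover counting error only.

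**Figure D5:**
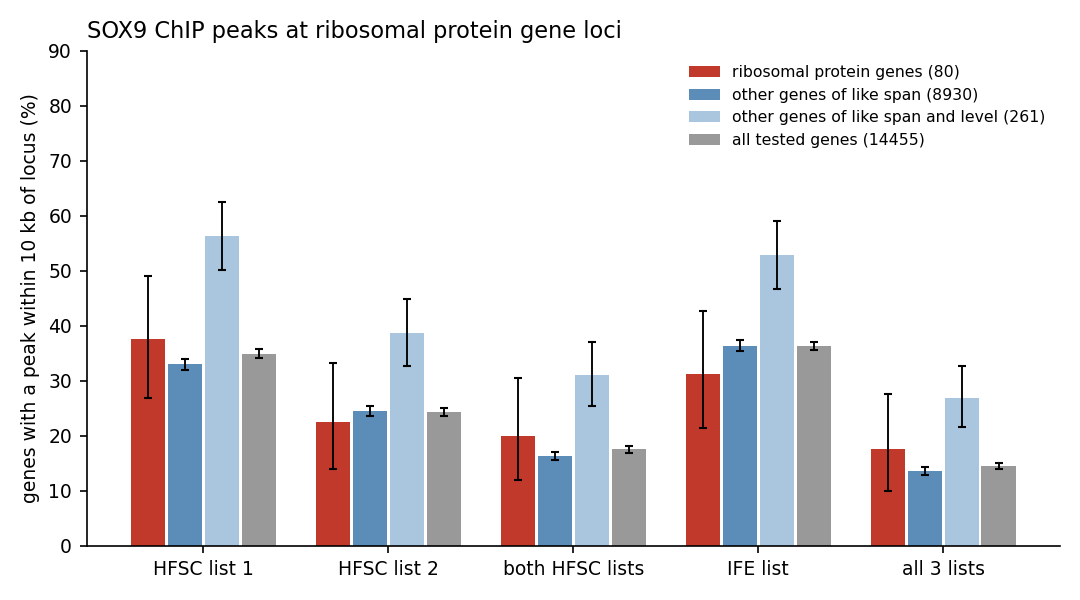
Share of genes with a SOX9 ChIP peak within 10 kb of the locus (%), for the ribosomal protein genes, other genes of like span, other genes of like span and level, and all tested genes, with exact 95% intervals. In both HFSC lists the shares were 20.0%, 16.3%, 31.0% and 17.5%.

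Genes with and without a peak had expression differences of close medians, and no test was made of the gap. The 16 genes with a peak in both HFSC lists had median differences, labelled cKO minus control, of 0.42 in the female pair and 0.25 in the male pair, and the 64 others of 0.44 and 0.23. For the 14 genes with a peak in all 3 lists the medians were 0.42 and 0.25, and for the 66 others 0.44 and 0.23. Their replicate medians were 1.39 and 1.51, with and without a peak in all 3 lists.

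A few ribosomal protein genes carried peaks of all 3 lists at one end of a short locus. Among loci of at most 20 kb, 34 of 68 genes had a peak of any list within 10 kb. The share was 49.1% for other genes of this span and of like level, and 39.3% for all other genes of this span. The 34 genes had 69 peaks, 47 of them in the locus and 38 centred within 1 kb of a locus end. Peaks were not counted in this way for other genes. Many of the loci are short, and much of a short locus lies within 1 kb of an end. Peaks of all 3 lists overlapped the locus itself for 8 of these 68 genes (11.8%, exact interval 5.22 to 21.9%), against 4.97% of other genes of at most 20 kb and 8.54% of those of like level. They were Rpl7, Rpl7a, Rpl18, Rpl22, Rps3a, Rps19, Rps27l and Rps28. At Rpl22 (mm9 locus chr4:151699850-151708180), the peaks were chr4:151699246-151700049 in HFSC list 1, chr4:151699446-151700325 in HFSC list 2 and chr4:151699367-151700277 in the IFE list. All 3 peaks cover the low-coordinate end of the locus, which is the 5′ end, since RefSeq places the gene on the + strand. At Rps27l (mm9 locus chr9:66793892-66797323) the peaks were chr9:66793710-66794568, chr9:66793564-66794569 and chr9:66793675-66794574 in the same order, again over the 5′ end of a gene on the + strand. Rpl7a had peaks at chr2:26765883-26766511, chr2:26765790-26766317 and chr2:26765893-26766491, over the 5′ end of its locus chr2:26766283-26768838. Rps19 had peaks at chr7:25669289-25669907, chr7:25669471-25670063 and chr7:25669350-25670252, at the 5′ end of its locus chr7:25669389-25674825. Rpl7 (chr1:16091375-16094743) and Rps3a (chr3:85941861-85946624) had peaks of all 3 lists over the high-coordinate end. These genes were named by where their peaks lay, and the values of Rps3a, Rps27l, Rpl22, Rpl7 and Rps19 are those given above.

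Of Rpl22, Rps27l, Rpl7a and Rps19, with peaks of all 3 lists at the 5′ end, the promoter of Rps27l is shown as the only one with a SOX hexamer and that of Rpl22 as an example without. The motif searched was the SOX hexamer ACAAAG or ACAATG on either strand, in capitals where present, and the stretches run from 250 bases before to 20 after the most upstream RefSeq start.
Rpl22: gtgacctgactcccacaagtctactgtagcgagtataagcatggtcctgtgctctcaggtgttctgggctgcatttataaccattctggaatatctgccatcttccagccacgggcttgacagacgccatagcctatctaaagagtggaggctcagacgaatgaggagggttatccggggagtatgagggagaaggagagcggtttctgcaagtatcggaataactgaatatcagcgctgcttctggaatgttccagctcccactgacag
Rps27l: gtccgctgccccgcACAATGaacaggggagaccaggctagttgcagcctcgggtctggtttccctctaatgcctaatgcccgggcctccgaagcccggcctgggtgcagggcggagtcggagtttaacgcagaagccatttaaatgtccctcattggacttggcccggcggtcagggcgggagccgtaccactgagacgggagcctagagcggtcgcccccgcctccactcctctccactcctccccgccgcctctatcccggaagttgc
They lie at chr4:152324186-152324455 and chr9:66945836-66946105, both on the + strand of GRCm38.p6. The stretch of Rps27l holds 1 ACAATG and that of Rpl22 neither hexamer. One of the hexamers was present in 12 of 58 ribosomal protein promoters (20.7%), against 22.9% of tested genes and 31.7% of all genes of the table, so that the share is not above the background. With such short motifs a match is a description of letters and not a site.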

How the data were processed

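RNA libraries (4) and SOX9 ChIP-seq peak lists (3) were used; 3 input libraries were not used here. Expression values were deposited by the authors as FPKM in 1 table. Per the submitters' processing notes, Cufflinks 1.0.3, TopHat2, TopHat and Bowtie were used with the build mm9, in roles they do not state. Strand setting and peak caller are not stated. FPKM is relative to the library total, so a few abundant transcripts lower all other values. Peak lists give positions only, 1 list per library.

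In R 4.3.3, limma 3.58.1 was fitted to log2(FPKM + 1) of the 14455 genes with a mean of at least 1 FPKM (moderated variances with a trend on the mean, two-sided p, Benjamini-Hochberg adjustment), with genotype alone and, as an alternative, with the replicate number as a block. The pseudocount understates changes of low genes. The labels pair the libraries by number (same sex, age and RU486 days), and deviations of same-numbered libraries from group means correlated at 0.812 across genes. Limma was tested on simulated data. Peaks within 10 kb of a locus, by at least 1 bp for overlap, were counted with Clopper-Pearson intervals. Other pseudocounts, filters, scalings, windows and left-out libraries were tried.

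The members and lists were chosen with earlier results of these data known. Genes were named by a rule: the 6 highest and 6 lowest differences of one sign in both pairs, the 5 most and 5 least abundant, paralogues with parents, genes with peaks in both HFSC lists or in the locus, genes of known roles, Sox9, and up to 3 genes a list by smallest p. Rpl36 and the printed promoters were chosen after their values or letters were seen. A few genes that the rule takes are not reported here.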

Additional observations from a re-analysis of the deposited data

Results flagged for a closer look

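The difference of Rplp0 between labelled cKO and control was 0.255 in the female pair and -0.665 in the male pair (log2(FPKM + 1)), opposite signs in the 2 pairs. Whether the pairs differ was not tested, since each pair has 1 library per genotype.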

How the results depend on the processing

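Depth, and with it the counting error of expression, is unknown, and 2 libraries a genotype leave little power: limma called 0 ribosomal protein genes for genotype under every alternative run. With the replicate block the count was 0 as well, and the median difference of 0.34 is the same by construction, since the design is balanced. The median was 0.14 after quantile normalization, with or without the replicate block, and between -0.45 and 1.14 when 1 library was left out, because the pairs then no longer balance. Leaving out 1 library gave 0 to 79 replicate calls. Without the 100 most abundant other genes, ribosomal protein genes held 14.8% of the FPKM of the female labelled cKO and 12.3% of the female control. The share with a SOX9 peak was 46.2% at 50 kb, against 31.9% of all tested genes, and 40.0% for either HFSC list within 10 kb, against 41.7%. After quantile normalization Rpl24 stood at -0.013 and Rpl13a at -0.0016, with and without the block; the cause was not tested, and no other named gene turned in sign outside the leave-one-out fits. The combinations of the block with other scalings and the 20 kb limit were chosen after seeing the data. Of the genes given here, Rps3a (0.068 to 1.09) and Rpl7l1 (0.038 to 0.27) kept their sign with 1 library left out. The lowest and highest values of those that did not were Rpl10 -0.37 and 0.76, Rpl10a -0.53 and 1.00, Rpl11 -0.55 and 1.08, Rpl12 -0.40 and 1.17, Rpl13 -0.49 and 1.15, Rpl13a -0.68 and 1.14, Rpl14 -0.47 and 1.15, Rpl18 -0.33 and 1.06, Rpl19 -0.45 and 1.20, Rpl22 -0.40 and 1.02, Rpl22l1 -0.34 and 1.10, Rpl23 -0.37 and 1.05. They were Rpl24 -0.49 and 0.86, Rpl27 -0.46 and 0.88, Rpl27a -0.43 and 1.08, Rpl29 -0.34 and 0.87, Rpl31 -0.64 and 1.00, Rpl34 -0.63 and 2.16, Rpl35 -0.55 and 1.23, Rpl35a -0.70 and 1.50, Rpl37 -0.54 and 1.19, Rpl38 -0.61 and 1.18, Rpl5 -0.44 and 1.09, Rpl7 -0.37 and 1.14, Rpl7a -0.28 and 0.95. Further values were Rpl8 -0.35 and 1.10, Rplp0 -0.97 and 0.56, Rplp1 -0.61 and 1.40, Rplp2 -0.66 and 1.27, Rps10 -0.52 and 1.24, Rps12 -0.43 and 1.47, Rps13 -0.43 and 1.03, Rps14 -0.43 and 1.19, Rps15 -0.42 and 1.19, Rps15a -0.40 and 1.19, Rps18 -0.28 and 1.15, Rps19 -0.41 and 1.23, Rps2 -0.11 and 1.39. The last were Rps20 -0.53 and 1.28, Rps25 -0.37 and 1.05, Rps27 -0.70 and 1.50, Rps27a -0.57 and 1.09, Rps27l -0.46 and 0.79, Rps28 -0.50 and 1.20, Rps4y2 -0.82 and 0.21, Rps6 -0.40 and 0.99, Rps7 -0.61 and 1.16, Rpsa -0.38 and 1.24.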
